A study of Rattus norvegicus with 180 samples.

Results

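Urinary bladder and anterior stomach were compared for every miRNA on the arrays of an expression atlas of the male rat. The members were the arrays whose titles name the bladder or the anterior stomach of perfused animals 4, 5 and 6, which gave 6 of 180 arrays, 3 per organ. The atlas holds 55 organs of these 3 animals, and 5 organs of 3 animals that were not perfused, which enter here only the scale and floor of the signals and the counts over all arrays. All animals were male Sprague-Dawley rats, 10 weeks old, under ether anesthesia. The 3 animals used here had their blood washed out with saline before the organs were taken, and each of them gave 1 bladder and 1 anterior stomach, so that both organs were compared within the animal. No agent was given and no gene was altered in either group. Total RNA of whole tissue was labeled with Cy3 and hybridized to 1-color Agilent arrays, and an array value is therefore a mixture of the muscle wall, the lining, the vessels and the connective tissue of an organ. In such samples, fewer cells of a type and less RNA per cell cannot be told apart.

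A miRNA is a short RNA that guides a silencing complex to messenger RNAs, mostly through its seed, the bases near its 5′ end. The bladder is a muscular sac lined by urothelium, and the anterior stomach of the rat, or forestomach, is a muscular sac lined by keratinized stratified squamous epithelium without gastric glands. miR-143 and miR-145 are made from neighboring hairpins and are known for their high level in smooth muscle. miR-203 and miR-205 are known from stratified epithelia, and the miR-200 family from epithelia in general. The miR-10 and miR-196 genes lie in the Hox clusters, whose genes mark position along the body axis.

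The mature sequences of the miRNAs on which the results turn are printed 5′ to 3′ from RefSeq (build GRCr8), with the seed, bases 2 to 8, in capitals. Array names without an arm were paired with the RefSeq arm by the miRBase naming, and all 30 names looked up were matched. The first set is shown because its members are nearly the same in sequence and differed between the organs in size or direction. The 3 miR-196 sequences share the seed AGGUAGU and differ from each other at 1 of 22 bases, counted from 1 at the 5′ end (A12C from miR-196a-5p to miR-196b-5p, A12G from miR-196a-5p to miR-196c-5p). miR-10b-5p starts 2 bases further in than miR-10a-5p and differs from it at 1 of the 21 bases they share (U12A, counted in miR-10a-5p), so that their seeds are offset. Whether a probe for one member of such a set also bound the other was not tested.
rno-miR-196a-5p: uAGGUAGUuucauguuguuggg
rno-miR-196b-5p: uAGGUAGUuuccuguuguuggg
rno-miR-196c-5p: uAGGUAGUuucguguuguuggg
rno-miR-10a-5p: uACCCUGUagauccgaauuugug
rno-miR-10b-5p: cCCUGUAGaaccgaauuugugu
The second set holds the smooth muscle markers and the epithelial miRNAs, of which miR-203 had the largest difference of all tested miRNAs.
rno-miR-143-3p: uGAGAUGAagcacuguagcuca
rno-miR-145-5p: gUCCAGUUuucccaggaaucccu
rno-miR-203a-3p: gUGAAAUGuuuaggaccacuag
rno-miR-205: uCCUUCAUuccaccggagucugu
The last set holds miRNAs with a large difference outside these groups, with both arms of the hairpins miR-199a and miR-140 because both arms were called in the same direction.
rno-miR-139-5p: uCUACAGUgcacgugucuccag
rno-miR-135b-5p: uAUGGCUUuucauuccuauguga
rno-miR-322-5p: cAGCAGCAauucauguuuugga
rno-miR-199a-5p: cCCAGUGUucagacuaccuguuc
rno-miR-199a-3p: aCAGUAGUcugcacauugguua
rno-miR-140-5p: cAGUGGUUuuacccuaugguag
rno-miR-140-3p: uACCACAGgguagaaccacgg

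The 6 arrays held 14340 miRNA spots each for 717 miRNAs, and no spot was saturated (0 on each). Between 170 and 187 miRNAs were detected per bladder array and between 148 and 181 per anterior stomach array, against 86 to 244 over all 180 arrays. Detection means that the scanner software set more than 50% of the spots used for a miRNA well above background. Arrays were brought to 1 scale by the 75th percentile of the 37 miRNAs that every array detected, and lower values were raised to a floor of 10.8. Before scaling, this percentile was 5152, 6087 and 4607 on the bladder arrays of animals 4, 5 and 6. It was 2250, 3522 and 3473 on the anterior stomach arrays, so that the bladder array was brighter in each animal. On all 3 bladder arrays this percentile was miR-22, whose spread there is therefore 0 by construction, and on 2 anterior stomach arrays it was let-7b. All signals below are on this scale, and a difference is the log2 signal of bladder minus that of anterior stomach. The number of arrays, 3 per organ, limits the precision. Each of the 6 arrays lay on a slide of its own, so that within an animal organ and slide cannot be told apart. The 3 animals were scanned on 3 different days, so that animal and scan day cannot be told apart either.

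Bladder and anterior stomach had similar profiles, with a limited set of large differences. Of 169 miRNAs tested, which were those detected on all 3 arrays of at least 1 organ, 42 passed an adjusted p of 0.05 in limma with animal as a block (24.9%). In bladder 28 of them were higher (16.6%), and in anterior stomach 14 were higher (8.28%). Of the 169, 26 passed the filter through bladder only and 4 through anterior stomach only. The part of the brighter bladder arrays in this was not tested. The median difference over the 169 miRNAs was 0.10 and the median size of a difference 0.39. Only 19 of the 169 differed by more than 1 log2 unit, and 16 of these were called, 12 higher in bladder and 4 higher in anterior stomach. The 3 that were not called were miR-1, miR-1949 and miR-3584-5p, of which the latter 2 are named because of their size after their values were seen. The 3 signals of an organ did not overlap those of the other for 41 of the 42 called miRNAs and for 88 of all 169. Without the block 68 were called (43 and 25), with 40 of the 42 among them. The balance of the calls differed between the alternatives, some of which changed more than 1 choice at once. Scaling over the 139 miRNAs detected on all 6 arrays gave 19 higher in bladder and 22 in anterior stomach, against 28 and 14. Quantile normalization gave 23 and 22. Normexp background correction, which was run on the median spot signal, gave 23 and 70. A test of only the miRNAs detected on all 6 arrays gave 31 and 31, and the floor divided by 4 gave 43 and 35. The authors' table, with its own scaling and without a floor, gave 30 and 28. The number of calls also changed when an animal was left out. Limma without animal 4 or without animal 5 called 0, with 49 and 35 at an unadjusted p under 0.05, and without animal 6 it called 25. With the spread taken from all perfused arrays of the atlas, 51 were called with 3 animals, and 28, 30 and 36 without animal 4, 5 and 6. The fits that left out an animal with this spread were chosen after seeing the data. Of the 42 calls, 18 were also made in each of the last 3 fits. Of the calls with the 12 largest differences in each direction, 14 were made in all 3, those of miR-411* and miR-92a in 2, and those of miR-199a-3p and miR-199a-5p in 1. The calls of miR-1224, miR-205_v15.0, miR-10a-5p, miR-466b-1*, miR-329 and miR-200a were made in 0 of them.

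**Figure D1:**
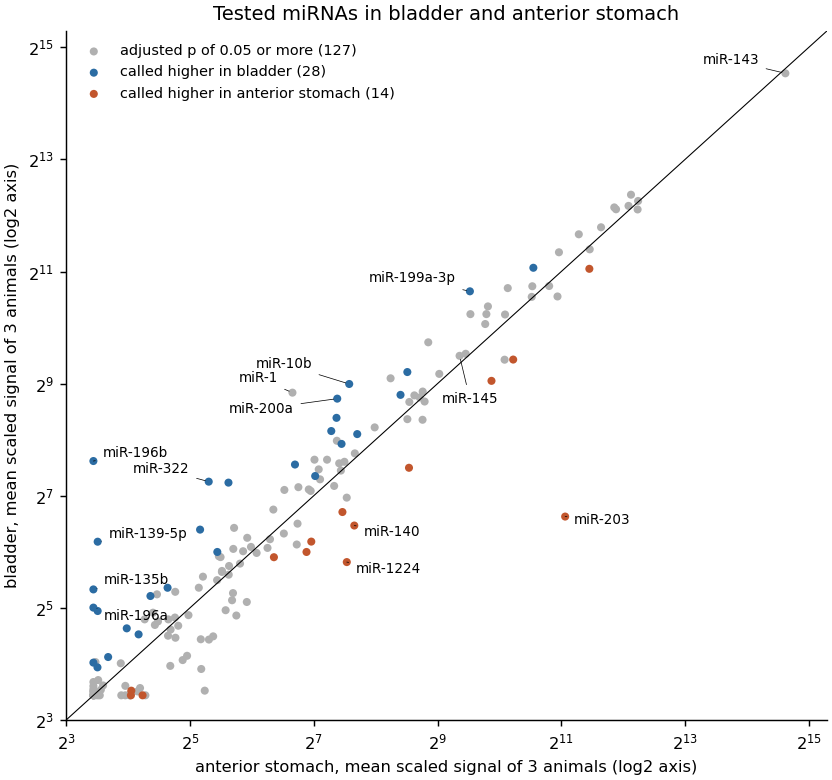
Mean scaled signal of the 3 bladder arrays (y axis) against that of the 3 anterior stomach arrays (x axis), both on log2 axes, for the 169 tested miRNAs. The line marks equal signals. The 28 miRNAs called higher in bladder lie above it and the 14 called higher in anterior stomach below it, with miR-196b and miR-203 farthest from it and miR-143 near it at the top.

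The labels were checked against miR-143 and miR-145 as markers of smooth muscle. Both were high in both organs, so that an exchange of the labels of bladder and anterior stomach would not show. The smooth muscle list held no call in limma (0 of 8 tested entries, with 1 at an unadjusted p under 0.05). Of all tested miRNAs 24.9% were called, and 75 of the 169 had an unadjusted p under 0.05. miR-143 had signals of 24921, 26108 and 20293 in bladder of animals 4, 5 and 6 and of 22758, 23858 and 29022 in anterior stomach. The difference was -0.09 (SE 0.18, limma adjusted p 0.752), with a 95% interval from -0.66 to 0.49. Among the 55 organs, anterior stomach had the highest and bladder the second highest mean level of miR-143, and bladder had the highest and anterior stomach the second highest of miR-145. The seminal vesicle, another muscular organ, came next for both. miR-145 had signals of 815.1, 882.4 and 468.4 in bladder and of 582.3, 586.7 and 796.6 in anterior stomach. Its difference was 0.10 (SE 0.36, adjusted p 0.848), and the signals of the organs overlapped for both markers. With intervals of this width (from -1.03 to 1.24 for miR-145), a difference of up to about 1 log2 unit in miR-145 was not detectable here.

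In the bladder of animal 6 the muscle markers were lower than in the bladders of animals 4 and 5. All 8 tested members of the smooth muscle list were lowest there among the 3 bladders, and all 8 were highest in the anterior stomach of animal 6 among the 3 anterior stomachs. The anterior stomach of animal 6 was not high in muscle markers alone, since it was also the highest of the 3 for all 4 tested squamous entries, both endothelial entries, 4 of 5 leukocyte entries and 4 of 6 miR-200 entries. In contrast to the muscle list, all 6 tested members of the miR-200 family were highest in the bladder of animal 6. Outside the list, let-7f, miR-26b and miR-365 were also lowest in that bladder and highest in the anterior stomach of animal 6. Instead, let-7b and miR-21 were highest in that bladder. The share of all tested miRNAs with the order of the muscle list was not counted. Of the 3 arrays of each organ, the bladder of animal 6 detected the fewest miRNAs (170) and its anterior stomach the most (181). The difference of miR-143 was 0.13 and 0.13 in animals 4 and 5 and -0.52 in animal 6, and without animal 6 it was 0.13. For miR-145 the values were 0.49, 0.59 and -0.77. The part of this shift in the other results was not tested. miR-1, a miRNA best known from striated muscle, had signals of 527.7, 565.1 and 280.5 in bladder and of 78.4, 79.9 and 143.95 in anterior stomach. The groups did not overlap, but the difference of 2.18 (SE 0.50) had an adjusted p of 0.071. It was 2.75, 2.82 and 0.96 in animals 4, 5 and 6. Without the block the adjusted p of miR-1 was 0.0123. miR-133b, a member of a family found in muscle, had signals of 1404, 1538 and 1049 in bladder and of 860.4, 866.2 and 974.05 in anterior stomach (difference 0.55, adjusted p 0.133). The median difference of the 8 tested smooth muscle members was 0.04, beside 0.10 over all tested miRNAs. Of the striated muscle list (miR-206, miR-208, miR-208b and miR-499) 0 of 9 entries could be tested, and 1, miR-499, was detected on any of the 6 arrays, at the floor.

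The miRNAs of the Hox clusters differed between the organs, and not all in 1 direction. Of 11 entries on the array 6 were detected in any of the 6 samples and 4 were tested, of which 3 were called higher in bladder and 1 higher in anterior stomach, beside 16.6% and 8.28% of all tested miRNAs. The count is a description, since 2 of the 3 bladder calls, miR-196a and miR-196b, passed the filter through bladder alone, where they are high. miR-196b, whose gene lies between Hoxa9 and Hoxa10 on chr4:82661149-82661170 (minus strand), had signals of 208.5, 189.8 and 191.1 in bladder. It was not detected on any of the 3 anterior stomach arrays, where it stood at the floor. It was at least 18.1-fold higher in bladder (limma adjusted p 0.00101). Its 3 anterior stomach values have a spread of 0 set by the floor, so that its p partly rests on the floor. miR-196a, from a gene between Hoxc10 and Hoxc9 on chr7:135988900-135988921, had signals of 37.7, 37.0 and 21.5 in bladder and was likewise not detected in anterior stomach. It was at least 2.87-fold higher in bladder (adjusted p 0.0375), and the same limit holds for its p. miR-196c, between Hoxb13 and Hoxb9, was detected on 1 bladder array at the floor and could not be tested. All 3 share 1 seed, as printed above.

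The miR-10 pair went in opposite directions. miR-10b, whose hairpin lies within the span of Hoxd4 (mature form on chr3:80035886-80035907), had signals of 433.8, 523.4 and 571.5 in bladder and of 202.7, 178.3 and 189.9 in anterior stomach. It was higher in bladder by 1.41 log2 units (SE 0.14, adjusted p 0.024). miR-10a-5p, from a gene between Hoxb5 and Hoxb4 on chr10:81779730-81779752, had signals of 661.2, 592.5 and 814.2 in bladder and of 1121, 1255 and 1208 in anterior stomach. Its difference was -0.80 (SE 0.13, adjusted p 0.0424), higher in anterior stomach in each of the 3 animals. The organs were thus in opposite order for the 2 miR-10 forms. The call of miR-10b was also made in all 3 fits that left out an animal with the spread of all perfused arrays, and that of miR-10a-5p in 0 of them. The median difference of the 4 tested members was 1.47, and 0.30 over the members detected on all 6 arrays, which leaves out both miR-196 forms.

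**Figure D2:**
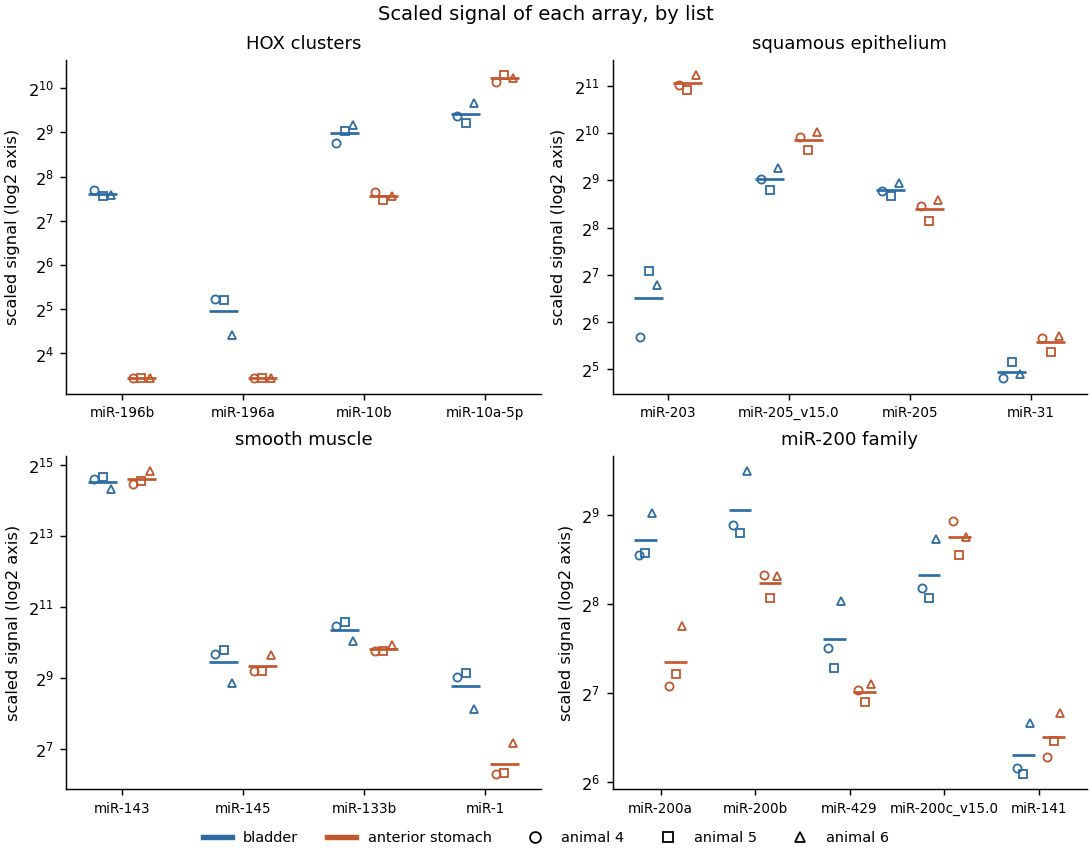
Scaled signal (log2 y axis) of selected miRNAs of 4 lists in bladder and anterior stomach, with 1 symbol per animal and a bar at the mean log2 signal of 3 animals. miR-196b and miR-196a lie at the floor of 10.8 on all anterior stomach arrays, miR-203 is higher in all 3 anterior stomachs, and the signals of miR-143 and miR-145 overlap between the organs.

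miR-203, which in skin restrains the proliferation of epidermal progenitors, had the largest difference. Its signals were 2081, 1929.9 and 2404 in anterior stomach and 51.5, 134.9 and 110.1 in bladder. It was 23.3-fold higher in anterior stomach (difference -4.54, SE 0.36, adjusted p 0.0208). The difference was -5.34, -3.84 and -4.45 in animals 4, 5 and 6, and the spread came mainly from bladder, where the value of animal 4 was the lowest. The gene lies between Aspg and Kif26a on chr6:137020756-137020777. Anterior stomach had rank 2 of 55 organs, after esophagus, and bladder rank 16. The glandular stomach, at 76.2 ± 20.2 (SD, n = 3), was nearer to bladder than to anterior stomach, which had 2138.5 ± 242.3 (SD, n = 3).

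The other squamous markers gave smaller differences, and miR-205 gave 2 answers. The array carries 2 entries for miR-205, known for maintaining epithelial identity. The entry of the older miRBase release (miR-205_v15.0) had signals of 524.3, 446.8 and 617.9 in bladder and of 965.2, 806.7 and 1038 in anterior stomach and was called higher in anterior stomach (difference -0.83, adjusted p 0.0171). The entry named miR-205 had signals of 436.3, 406.4 and 493.4 in bladder and of 351.5, 281.2 and 381.6 in anterior stomach and was called higher in bladder (difference 0.40, adjusted p 0.0453). The signals of the organs did not overlap for either entry. With all perfused arrays in the fit the adjusted p was 0.0205 for the older entry and 0.325 for the other, and no direction is given here for miR-205 itself. miR-31, found in keratinocytes, had signals of 27.9, 35.4 and 29.8 in bladder and of 50.3, 41.0 and 51.7 in anterior stomach, without overlap, and was not called (difference -0.62, adjusted p 0.0955). The 4 tested members had a median difference of -0.72.

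Of the epithelial miR-200 family, 1 of 6 tested entries was called, miR-200a, higher in bladder, a share near the 16.6% of all tested miRNAs called in that direction. miR-200a, miR-200b and miR-429 come from 1 cluster and miR-200c and miR-141 from another. miR-200a had signals of 373.6, 382.04 and 519.5 in bladder and of 135.4, 148.4 and 215.5 in anterior stomach. It was higher in bladder by 1.37 log2 units (SE 0.07, adjusted p 0.0154). miR-200b had signals of 473.8, 445.2 and 720.9 in bladder and of 321.1, 268.3 and 318.1 in anterior stomach, without overlap, at an adjusted p of 0.0517 (difference 0.82). miR-429 had a difference of 0.60 (adjusted p 0.0812), again without overlap. The members of the other cluster had differences on both sides of 0, at -0.43 for miR-200c_v15.0, 0.26 for the entry miR-200c and -0.20 for miR-141, with adjusted p of 0.187, 0.146 and 0.183. The signals of the organs overlapped for all 3 of these. The difference between the clusters was not tested. The median over the 6 tested entries was 0.43. Of the miR-183 cluster, known from sensory epithelia, miR-96 was called higher in anterior stomach (difference -0.46, adjusted p 0.033), although it is the called miRNA whose signals overlapped between the organs (49.6, 53.7 and 76.1 against 72.6, 73.5 and 99.5). Without the block its adjusted p was 0.156. miR-183 had a difference of -0.84 and was not called (adjusted p 0.0955).

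Among the 12 largest called differences toward bladder, those of 9 miRNAs lay outside the Hox clusters. miR-139-5p, from a hairpin within the span of Pde2a, had signals of 87.9, 79.1 and 50.3 in bladder and was not detected in anterior stomach, which gave a difference of at least 6.21-fold (adjusted p 0.024). miR-135b, within the span of Lemd1, had signals of 33.7, 44.2 and 42.6 in bladder and was not detected in anterior stomach, which gave at least 3.68-fold (adjusted p 0.0154). Both entered the test through bladder alone. All 3 anterior stomach values of miR-135b and 2 of the 3 of miR-139-5p stood at the floor, the other being 12.4, so that the p of both partly rests on the floor. miR-322, the rodent form of miR-424 and a member of the miR-16 seed family, had signals of 170.9, 121.9 and 163.9 in bladder and of 34.9, 38.2 and 45.2 in anterior stomach. It was 3.84-fold higher in bladder (adjusted p 0.0208). The other tested entries of its X-linked cluster, miR-450a_v15.0, miR-542-3p and miR-542-5p, stood at or just above the floor in bladder and were not detected in anterior stomach. Of the entries that could not be tested, miR-450a had signals of 37.5, 33.3 and 27.4 in bladder, where 2 arrays detected it, and of 10.8, 10.8 and 11.4 in anterior stomach, where none did. miR-322*, the other arm, had signals of 21.7, 16.9 and 16.6 in bladder, detected on 1 array, and stood at the floor in anterior stomach, and miR-503 stood at the floor in both organs.

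miR-338, known from oligodendrocytes and encoded within Aatk, had signals of 190.7, 128.5 and 131.97 in bladder and of 44.1, 51.3 and 52.1 in anterior stomach (difference 1.59, adjusted p 0.0333). miR-224_v15.0, encoded within Gabre, had signals of 38.2, 28.7 and 25.4 in bladder and of 11.7, 10.8 and 11.6 in anterior stomach (difference 1.41, adjusted p 0.024). miR-342-3p, encoded within Evl, had signals of 91.6, 72.2 and 88.5 in bladder and of 38.4, 36.2 and 32.8 in anterior stomach (difference 1.23, adjusted p 0.024). Bladder was higher in each animal for all 3.

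**Figure D3:**
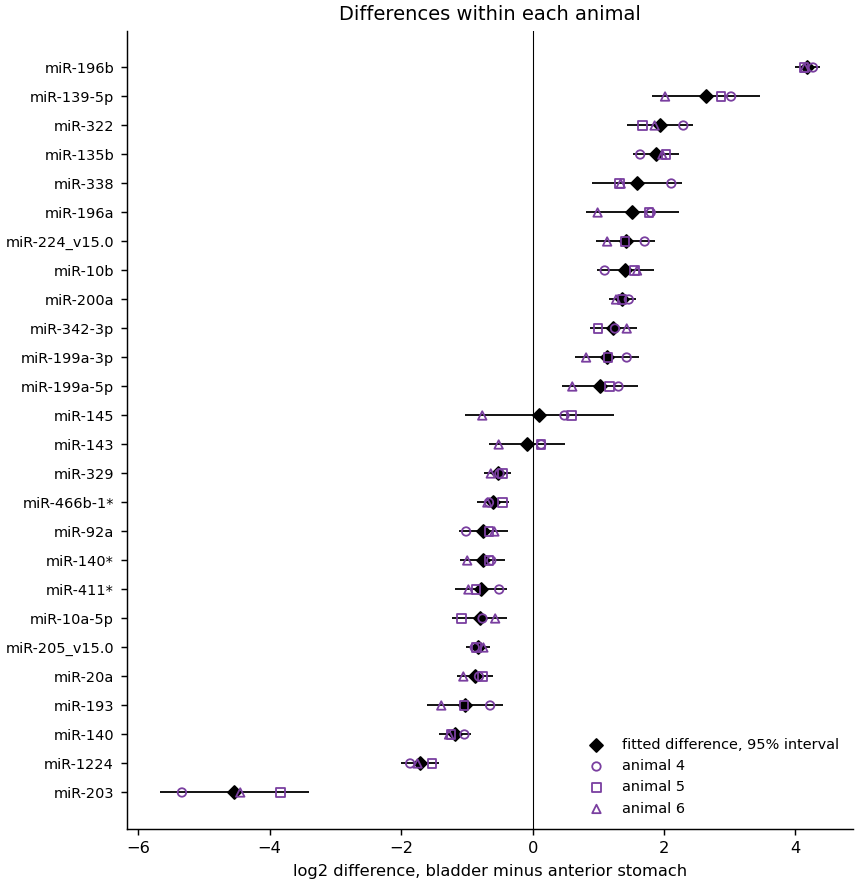
Log2 difference of bladder minus anterior stomach (x axis) in each animal (open symbols) and as fitted (diamonds, with the 95% interval as a line) for the 12 largest called differences in each direction and for miR-143 and miR-145. All 3 animals lie on the same side of 0 for the 24 called miRNAs, while miR-143 and miR-145 have animals on both sides.

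miR-199a and miR-214, which come from 1 transcript within the span of Dnm3 and are known from fibroblasts and other mesenchyme, were higher in bladder. miR-199a-3p had signals of 1690.1, 1668 and 1452 in bladder and of 626.4, 754.7 and 825.6 in anterior stomach (difference 1.13, adjusted p 0.0333). The other arm, miR-199a-5p, had signals of 347.9, 365.1 and 292.4 and of 140.6, 162.1 and 192.4, and miR-214 of 285.8, 272.9 and 295.4 and of 162.5, 159.6 and 144.9. Their differences were 1.03 and 0.87, with adjusted p of 0.0453 and 0.024. In the order of the 55 organs bladder had rank 5, 6 and 7 for miR-199a-3p, miR-199a-5p and miR-214, and anterior stomach rank 19, 19 and 21. In the opposite direction, both arms of miR-140, a miRNA of cartilage encoded within Wwp2, were higher in anterior stomach. miR-140 had signals of 185.97, 167.2 and 251.1 in anterior stomach and of 90.6, 70.7 and 104.1 in bladder (difference -1.18, adjusted p 0.016). miR-140* had signals of 117.6, 101.5 and 154.2 and of 76.0, 64.2 and 77.4 (difference -0.76, adjusted p 0.0345). Of the 24 alternatives, the call was made under 21 for miR-140, 19 for miR-140*, 16 each for miR-199a-3p and miR-199a-5p and 12 for miR-214, whose adjusted p with all perfused arrays in the fit was 0.0506. Of 6 tested entries of the fibroblast and mesenchyme list, 3 were called higher in bladder and 2 higher in anterior stomach, with a median of 0.70, beside 16.6% and 8.28% of all tested miRNAs called in these directions.

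miR-1224, encoded within Vwa5b2, had signals of 199.7, 167.8 and 188.1 in anterior stomach and of 54.9, 58.1 and 55.9 in bladder. It was 3.28-fold higher in anterior stomach (adjusted p 0.0154), and bladder had rank 54 of 55 organs, with pancreas first. miR-193 had signals of 302.8, 374.3 and 438.2 in anterior stomach and of 193.5, 181.5 and 167.2 in bladder (difference -1.03, adjusted p 0.0453). Of 55 organs, anterior stomach had rank 4 and bladder rank 8.

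The miR-17-92 cluster, known for promoting proliferation, was represented by 5 tested entries, all with negative differences, beside 64 negative differences among all 169. miR-20a had signals of 108.7, 108.3 and 136.8 in anterior stomach and of 61.7, 63.8 and 65.9 in bladder (difference -0.88, adjusted p 0.024). miR-92a, which is encoded at 2 loci, had signals of 198.01, 151.9 and 179.1 and of 98.2, 95.8 and 119.7 (difference -0.75, adjusted p 0.0404). miR-17-5p, miR-19a and miR-19b were not called, though their signals did not overlap between the organs. Their differences were -0.86, -0.78 and -0.54, with adjusted p of 0.0582, 0.105 and 0.0955. With all perfused arrays in the fit their limma adjusted p was 0.00189, 0.0142 and 0.0338. In the related miR-106b-25 cluster the differences were positive. miR-25 was called higher in bladder (difference 0.33, adjusted p 0.0453), and miR-93 and miR-106b were not called. The call of miR-25 was made under 5 of the 24 alternatives (adjusted p 0.097 with all perfused arrays in the fit). Over the 8 entries of both clusters 1 was called higher in bladder and 2 higher in anterior stomach, with a median of -0.65. The share toward bladder is near the 16.6% of all tested miRNAs, and the share toward anterior stomach stands beside 8.28%.

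The imprinted Dlk1-Dio3 cluster, a large miRNA locus known from embryonic and neural tissue, was measured at low signals. Of 84 entries 19 were detected in any of the 6 samples and 8 were tested. All 8 differences were negative, with a median of -0.65, beside 64 negative differences among all 169. Higher in anterior stomach were 2 of the 8, beside 8.28% of all tested miRNAs called in that direction and 24.9% called in either. The count is a description, since both called entries passed the filter through anterior stomach alone, where they are high, and were detected on 2 of the 3 bladder arrays. miR-411* had signals of 15.4, 19.6 and 21.3 in anterior stomach and stood at the floor on all 3 bladder arrays (adjusted p 0.0407). miR-329 had signals of 15.4, 17.5 and 16.8 in anterior stomach and of 10.8, 12.8 and 10.8 in bladder (adjusted p 0.0319). With bladder values at the floor, the p of both partly rests on the floor. miR-127, one of those not called, had signals of 33.2, 46.0 and 45.2 and of 23.5, 27.7 and 16.2 (difference -0.90, adjusted p 0.0955). For miR-127 the limma adjusted p was 0.0046 with all perfused arrays in the fit and 0.0417 without the block. For miR-329 it was 0.0544 and 0.0117. Outside the lists, miR-466b-1* had signals of 17.2, 14.9 and 17.5 in anterior stomach and stood at the floor in bladder (adjusted p 0.0319). Its p likewise partly rests on the floor. The floor limits the size that differences of such low miRNAs can reach. The anterior stomach arrays were dimmer before scaling and were raised more by it. The part of this in differences so near the floor was not tested.

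**Figure D4:**
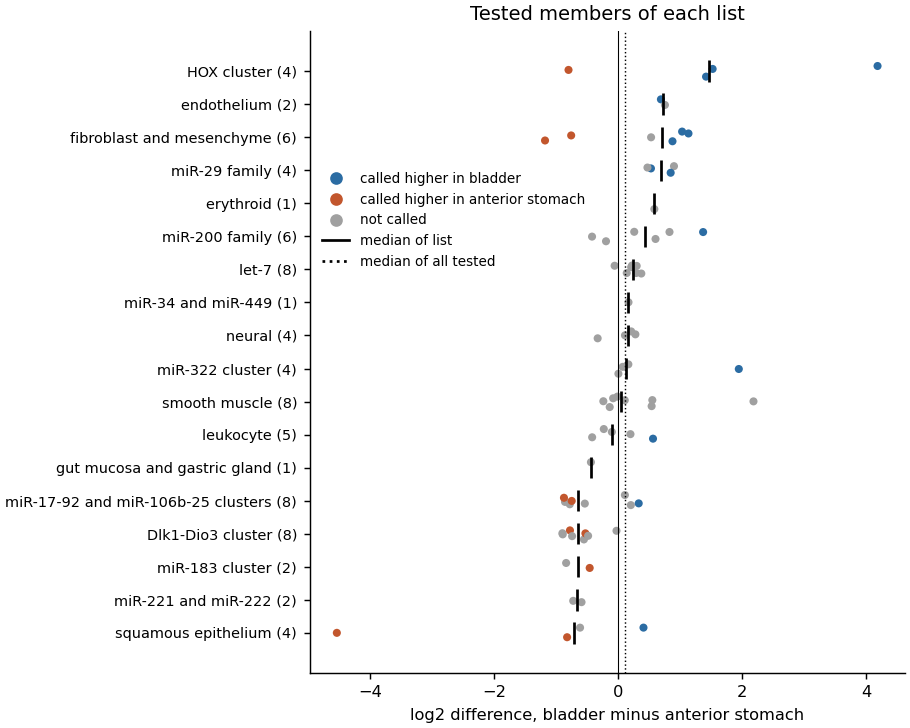
Log2 difference of bladder minus anterior stomach (x axis) of each tested member of the 18 lists with a tested member (y axis, number tested in brackets), colored by the call, with a bar at the median of each list and a dotted line at 0.10, the median over all 169 tested miRNAs. The Hox list has the highest median (1.47) and the squamous list the lowest (-0.72).

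The miR-29 family, known to repress collagens, had 4 tested entries, all with positive differences, beside 105 positive differences among all 169. Called higher in bladder were 2 of the 4, beside 16.6% of all tested miRNAs. miR-29a and miR-29c* were called (differences 0.52 and 0.84, adjusted p 0.0318 and 0.0292). miR-29b and miR-29c were not (differences 0.47 and 0.90, adjusted p 0.145 and 0.0955). With all perfused arrays in the fit the limma adjusted p was 0.0445 for miR-29b and 0.000724 for miR-29c. Without the block it was 0.166 and 0.0343. The median of the 4 entries was 0.68. miR-29a had signals of 1943, 2391 and 2102 in bladder and of 1262, 1726 and 1505 in anterior stomach.

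Markers of other cell types were also examined. The endothelial miR-126 was called higher in bladder, with signals of 679.8, 516.4 and 575.9 against 362.6, 356.5 and 375.8 (difference 0.69, adjusted p 0.0401). Its other arm, miR-126*, was not called (difference 0.75, adjusted p 0.233). With all perfused arrays in the fit the adjusted p of miR-126 was 0.0532. Of 5 tested leukocyte entries, miR-150, known from lymphocytes, was called higher in bladder (difference 0.56, adjusted p 0.0453), and miR-142-3p, miR-146a, miR-146b and miR-223 were not, with differences from -0.42 to 0.19. The 1 call of 5 is near the 16.6% of all tested miRNAs called in that direction. The call of miR-150 was made under 5 of the 24 alternatives, and with all perfused arrays in the fit its adjusted p was 0.172. The summed signal of the detected leukocyte entries was 381.5 to 437 in bladder and 365 to 475.8 in anterior stomach. The red cell marker miR-451 had signals of 34.2, 38.1 and 10.8 in bladder and of 36.0, 10.8 and 10.8 in anterior stomach, and miR-144 was not detected on any of the 6 arrays. Of 4 tested neural entries 0 were called in limma (differences from -0.33 to 0.27, 1 at an unadjusted p under 0.05). Beside this, 24.9% of all tested miRNAs were called and 75 of the 169 had an unadjusted p under 0.05. The neural miR-124 was not detected. Of 8 entries for the gut mucosa and gastric glands 1 could be tested, miR-192, at or near the floor in both organs (difference -0.44, adjusted p 0.0693), and miR-375 was not detected in either organ. The part of any of these cell types in the differences above was not tested.

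Other widely expressed lists held no call in the main limma fit. Of all tested miRNAs 24.9% were called, and 75 of the 169 had an unadjusted p under 0.05. The 8 tested let-7 entries had differences from -0.06 to 0.37, with a median of 0.23 and 2 entries at an unadjusted p under 0.05. miR-221 and miR-222 had differences of -0.59 and -0.73, both without overlap between the organs (adjusted p 0.16 and 0.105). With all perfused arrays in the fit the limma adjusted p was 0.083 for miR-221 and 0.0351 for miR-222. Without the block it was 0.0775 and 0.0337. miR-34a, the tested entry of the miR-34 and miR-449 list, had a difference of 0.16 (adjusted p 0.431).

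Compared with the rest of the atlas, each of the organs was the nearest to the other. The pair was chosen because the paper's principal component analysis of muscle organs, on arrays of this atlas, had placed bladder and stomach together. The likeness is therefore partly built into the choice and is not a separate result. Over the 425 miRNAs that any array detected, the correlation of log2 signals was 0.9696 on average between bladder and anterior stomach arrays (0.966 to 0.9727), against 0.9955 among the bladder and 0.9948 among the anterior stomach arrays. The next organs were the seminal vesicle (0.9264) and skin (0.9257) for bladder, and skin (0.9248) and the seminal vesicle (0.9196) for anterior stomach. These values run across miRNAs, which are not independent, and are given as a description without a test. The levels of the most different miRNAs in the other organs were as follows. For miR-196b, bladder had rank 7 of 55 organs, below cecum, rectum, the prostate array group labeled other, vein, kidney and colon and above the ventral prostate. It was detected on all 3 arrays of 17 organs and on none of 35, and anterior stomach, esophagus and glandular stomach were among the latter. For miR-139-5p, bladder had rank 4, after cerebral cortex, hippocampus and thalamus, and the miRNA was detected on all 3 arrays of 8 organs. For miR-135b it had rank 6, after 4 parts of the brain and the eyeball. For miR-322 it had rank 19 and anterior stomach rank 48. These ranks are descriptions, and neighbors in the order were not compared by a test.

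**Figure D5:**
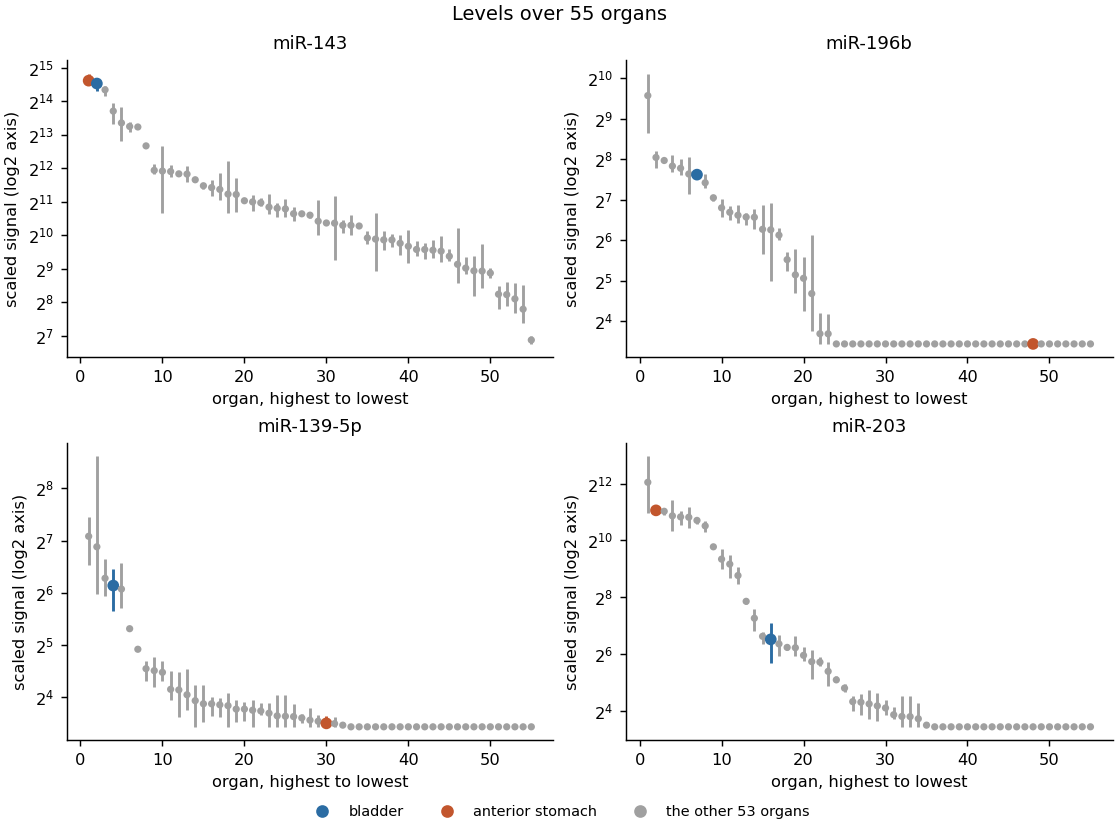
Scaled signal (log2 y axis) of 4 miRNAs in the 55 perfused organs, ordered from highest to lowest mean log2 signal (x axis), with a line from the lowest to the highest of 3 animals. Bladder and anterior stomach lead for miR-143, bladder has rank 7 for miR-196b and rank 4 for miR-139-5p, and anterior stomach has rank 2 for miR-203. Organs at the floor of 10.8 have no order among themselves.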

How the data were processed

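Scanner output was used for the bladder and anterior stomach arrays of 3 perfused rats, for the 165 perfused arrays where organs were ranked, and for all 180 arrays to set the scale and the floor (the median over arrays of the lowest detected signal). The authors deposited, per array, Agilent Feature Extraction 10.7.3 output with a background-corrected signal intensity per spot and flags (other) for outliers and spots well above background, as given in the submitters' processing notes. They also deposited a table of normalized intensities, which differs from the total gene signal in the scanner output by a single multiplier for each array (spread at most 0.157%) and was used as an alternative. Its 21 control probes were not used, and 0 of its columns were left unmatched. The arrays hold probes of miRBase releases 15.0 and 16.0 as separate entries.

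Spots flagged as outliers were left out, and the rest were averaged per probe sequence and then per miRNA. For scaling, the 75th percentile of the 37 miRNAs that every array detected was set to 2118, a floor of 10.8 was applied, and log2 was taken. Limma 3.58.1 (R 4.3.3) fitted organ and animal over the 6 arrays, two-sided, with Benjamini-Hochberg adjustment over 169 miRNAs. The animals are separate, and animal is a block because both organs came from the same rats. The fit was tested on simulated data. Named were miR-143 and miR-145, the 12 largest called differences with 1 sign in all animals in each direction, and the members of 19 lists with the arms and cluster neighbors of these. The organs, members and lists were chosen with earlier results of these data known. The signal that a normexp alternative needs was taken from the median column. Other alternatives changed the scaling, floor, filter, summary of spots, block and arrays. For a miRNA not detected in 1 organ, the fold is a bound against the floor, or against its own signal where that was higher. Tables were made with Python 3.11.15 (pandas 2.3.3, numpy 2.4.6, matplotlib 3.10.9).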

Additional observations from a re-analysis of the deposited data

How the results depend on the processing

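The signs of the differences turned less often than the calls were lost, in part by construction. Of the 42 called miRNAs 34 had no alternative with the opposite sign, and the others were miR-29c*, miR-181b, miR-181d, miR-378*, miR-326, miR-532-5p, miR-125a-5p and miR-872. Changes of the block, the variance or the filter alone leave a difference as it is. All 42 calls had 1 sign in all 3 animals, so that leaving out an animal could not turn them. A difference that fell to 0 was not counted as opposite. With 2 residual degrees of freedom the calls depend on the estimate of the spread. In simulated data of this size 17.75% of planted differences of 0.5 log2 units and 86% of those of 1 log2 unit were called. The simulated arrays had independent normal noise, no floor and 20 changed miRNAs at a time, unlike the data, so that these shares may not hold for the data. Differences of low miRNAs depend on the floor, which sets the level of 40 of the 169 tested miRNAs on at least 1 array. A scaling moved the median of all differences by -0.16 to 0.10, and normexp by -0.35, and every difference is relative to that choice. Normexp was run on the median spot signal and the median background.

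The animal number pairs the organs, since both came from the same animals. The deviations of same-numbered arrays correlated at 0.06, 0.11 and -0.14. With no replicate block, 43 miRNAs were higher in bladder and 25 in anterior stomach, with 40 calls shared, so that fewer were called with the block. The block also takes up residual degrees of freedom, and the part of this in the number of calls was not tested. With 1 array per organ in each animal, the block alters the error of a difference and not the difference itself.

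The 28 calls toward bladder became 43 with the floor divided by 4, 4 with 4 times the floor, 17 over the miRNAs detected on at least 1 of the 6 arrays and 0 in limma without a filter (53 of 717 at an unadjusted p under 0.05). The 14 calls toward anterior stomach became 22 with scaling over the miRNAs detected on all 6 arrays, 23 with scaling to their median, 22 with quantile normalization, 70 with normexp, 35 with the floor divided by 4, 3 with 4 times the floor, 8 with detection on at least 1 array, 31 with detection on all 6, 0 without a filter and 28 in the authors' table. Without 1 animal, 0 to 17 were higher in bladder and 0 to 8 in anterior stomach. With the spread of all perfused arrays, an alternative chosen after seeing the data, these ranges were 14 to 29 and 7 to 14. Outside normalization and filters, the scanner's total signal, kept outlier spots, the median over spots, a trend in the variance, and all perfused arrays with or without slide as a random block kept both counts within 1.5 times.

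miR-143, with -0.09, had 0.018 with scaling over all miRNAs, and from -0.19 to 0.13 without 1 animal. miR-145, with 0.10, had -0.10 with scaling over the miRNAs detected on all 6 arrays and -0.049 with quantile normalization, and from -0.14 to 0.54 without 1 animal (-0.089 without animal 4). Neither was called under any alternative. miR-29c* turned to -0.017 and miR-200c to -0.35 with normexp. Over 40 other miRNAs and 954 refits, 262 lost the call, 25 gained it and 2 reversed (those of miR-29c* and miR-200c). The rest kept direction and side of the threshold. These 40 were the 12 largest calls in each direction, the other called list members and some list members not called. List members outside these 40 also gained calls. Of the 24 alternatives, miR-17-5p was called under 14, miR-29c under 13, miR-127 under 12 and miR-222 under 11.

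List medians moved as follows. Without a filter, which adds entries at the floor, they were -0.31 for the squamous list, -0.010 for the miR-183 cluster, 0.26 for fibroblast and mesenchyme, and 0 for the miR-200 family, gut mucosa, Hox, miR-17-92 and Dlk1-Dio3 lists. With detection on at least 1 array they were 0 for gut mucosa, 0.71 for Hox and -0.088 for Dlk1-Dio3. With detection on all 6 they were 0.30 for Hox and 1.94 for the miR-322 cluster. With 4 times the floor they were -0.23 for miR-183, 0 for gut mucosa, 0.71 for Hox, -0.023 for miR-17-92 and 0 for Dlk1-Dio3. With the floor divided by 4 they were -0.81 for gut mucosa, 2.37 for Hox, 0.68 for neural and 1.81 for miR-322. In the authors' table, to which no floor was applied, they were -0.84, 5.31, 0.90 and 5.55 for these 4. With normexp they were -0.0085 for miR-200, -0.79 for gut mucosa, 0.76 for Hox, -0.41 for neural, 0.25 for fibroblast and mesenchyme and -0.32 for miR-322. Where no construction is named, the cause was not tested.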

Other observations

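Outside the lists and the 12 largest differences in each direction, 10 further miRNAs were called, and they are named here after their values were seen. Of the 4 tested entries of the miR-181 family, known from lymphocyte development, 3 were called higher in bladder, beside 16.6% of all tested miRNAs. The entries were grouped after their values were seen, and the count is a description. miR-181a had signals of 194.5, 190.9 and 179.1 in bladder and of 104.7, 108.8 and 97.4 in anterior stomach (difference 0.86, adjusted p 0.0154). The differences of miR-181b and miR-181d were 0.66 and 0.43 (adjusted p 0.0319 and 0.0404). miR-181c was not called (difference 0.52, adjusted p 0.105). In the fits that left out an animal with the spread of all perfused arrays, the call of miR-181a was made in 3 of 3 and those of miR-181b and miR-181d in 0, and with all 3 animals in that fit the adjusted p of miR-181d was 0.0868. Also higher in bladder were miR-378* (0.72), miR-326 (0.58), miR-151 (0.47), miR-532-5p (0.45), miR-125a-5p (0.40) and miR-872 (0.36), with adjusted p from 0.027 to 0.0453. miR-326 and miR-532-5p were detected on 2 of the 3 anterior stomach arrays and entered the test through bladder alone, where they are high. miR-326 stood at the floor on all 3 anterior stomach arrays, so that its p partly rests on the floor. Several of these directions turned with the processing. With normexp background correction, which moved the median of all differences by -0.35, the difference was -0.22 for miR-181b, -0.22 for miR-181c, -0.41 for miR-181d, -0.025 for miR-378*, -0.36 for miR-326, -0.37 for miR-532-5p and -0.35 for miR-872. With quantile normalization it was -0.051 for miR-125a-5p.

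miR-22 was higher in anterior stomach (difference -0.40, adjusted p 0.0424). Its signal set the scale on all 3 bladder arrays, so that its spread in bladder is 0 by construction, and without the block its adjusted p was 0.00864.

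Of the larger differences that were not called, miR-3584-5p had signals of 22.5, 59.8 and 30.8 in anterior stomach and of 10.8, 10.8 and 12.8 in bladder (difference -1.60, adjusted p 0.071). miR-1949 had signals of 46.1, 13.2 and 49.4 and of 15.5, 10.8 and 18.7 (difference -1.09, adjusted p 0.105). The groups of miR-1949 overlapped, and its anterior stomach value in animal 5 was the low one.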
